A study of Neogale vison with 6 samples.

Results

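The genes described here encode the mitochondrial ribosomal proteins, taken as every gene of the mink count table whose symbol consists of MRPL or MRPS, a number and at most 1 further letter. There were 52 such genes among 24526 in the table, 29 with an MRPL symbol (large subunit) and 23 with an MRPS symbol (small subunit). All 52 passed the filter on low counts, as did 12148 genes of the table as a whole.

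Mitochondria carry their own ribosome, the mitoribosome, which translates the few messenger RNAs transcribed from mitochondrial DNA. These messages encode hydrophobic core subunits of the respiratory chain and of ATP synthase. The RNA parts of the mitoribosome come from mitochondrial DNA, whereas all of its proteins are encoded in the nucleus, made in the cytosol and imported. Some of these proteins have bacterial relatives and others exist in mitochondria alone. The large subunit forms peptide bonds and releases the new chain through an exit tunnel towards the inner membrane, and the small subunit holds the messenger RNA and decodes it.

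RNA was sequenced from Mv1Lu cells, an epithelial line from mink lung, with 3 libraries of untreated control cells and 3 libraries of cells under cholesterol depletion (CD). CD cells were kept for 16 h with 50 μM lovastatin, an inhibitor of the enzyme that makes mevalonate, together with 50 μM mevalonate, in medium with 10% lipoprotein-deficient serum (LPDS). The serum therefore belonged to the treatment, and statin, mevalonate and serum cannot be told apart. The labels do not say whether the 3 libraries of a group came from separate cultures, so that p-values measure only the spread between these libraries.

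Between 13473820 and 18633764 reads per library lay on genes, and reads that were not assigned to a gene made up 29.3 to 47.2% across libraries, with both groups spread over that range. Of the epithelial markers, KRT19 was abundant (936 CPM, that is reads per 1000000 reads of the scaled library, in control and 458 in CD, means of 3), CDH1 and EPCAM were near 0 (at most 0.39 CPM) in both groups, CLDN4 had 0.603 CPM in control and 7.03 in CD, and KRT8 and KRT18 were not found by symbol. Of the alveolar type II markers, SFTPB and SFTPC had 0 counts in all 6 libraries, NKX2-1 had 32 counts in all, ABCA3 had 72.7 CPM in control and 118 in CD, and SFTPA1 was not found by symbol. The fibroblast genes COL1A2 and COL1A1 had 212 and 23.5 CPM in control and 164 and 12.3 in CD, PDGFRA had at most 2.998 CPM and DCN at most 0.328. Of the leukocyte markers, PTPRC had 1 count in all, CD68 had 5.45 CPM in control and 19.7 in CD, and CD3E was not found by symbol. The airway markers SCGB1A1 and FOXJ1 had at most 1.41 CPM, and the endothelial markers PECAM1, CDH5 and KDR at most 0.232. The part of these marker differences in the results was not tested. In bulk RNA, fewer cells of a kind and less RNA per cell cannot be told apart.

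The question was how the messages for the mitoribosome's proteins responded to CD. More of them fell than rose, although in CD replicate 3 more of them lay above all control libraries than below. MRPL12, of the stalk to which translation factors bind, fell 2.27-fold, MRPS25, a mitochondria-specific protein of the small subunit, fell by 0.996 on the log2 scale, and MRPL27, which lies close to the site of peptide bond formation, fell by 0.87. In all, 15 of the 52 genes fell and 2 rose (MRPL39 and MRPS21) by edgeR's quasi-likelihood test at a false discovery rate (FDR, Benjamini-Hochberg over all genes tested) under 0.05, and 35 did not pass. Over all genes tested, 24.8% rose, 22.9% fell and 47.7% were called in either direction. All CD libraries lay below all control libraries in 17 of the 52 genes and above them in 2, against 28.6 and 29.5% of all genes (58% without overlap in all). The shares that fell or lay below were not far above those of all genes. The shares that rose or lay above were much smaller than those of all genes. The median log2 fold change of the 52 genes was -0.18 and that of all genes tested 0.06. The value was negative in 34 of the 52 genes and in 46.8% of all genes tested.

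The subunits were counted apart. In the large subunit 6 of 29 genes fell and 1 rose, and log2 fold changes ran from -1.18 to 0.68 around a median of -0.03. In the small subunit 9 of 23 fell and 1 rose, with a median of -0.18 and a range from -0.996 to 0.46. The 6 of 29 in the large subunit is a share near the 22.9% of all genes that fell, and whether the subunits differed from each other was not tested. Without CD replicate 3, 14 genes of each subunit fell, with 1 rise in the large and 0 in the small, and over all genes 29.2% then fell and 29.3% rose. Without any 1 of the other 5 libraries, 2 or 3 genes of the large subunit fell (2 without control replicate 1 or 3, 3 without control replicate 2 or either of CD replicates 1 and 2) and 6 to 8 of the small. Over all genes the share that fell was 17.9, 19.2 and 17.8% without control replicates 1, 2 and 3, and 23.5 and 20.6% without CD replicates 1 and 2, and the share that rose was 18.4, 19.4, 18, 25.1 and 20.3% in the same order. The rise in the large subunit was lost without control replicate 1 or 3, and that in the small subunit in every case but without CD replicate 1. At an FDR under 0.01, 2 large and 6 small subunit genes fell and 0 rose, against 16.8 and 16.5% of all genes.

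**Figure D1:**
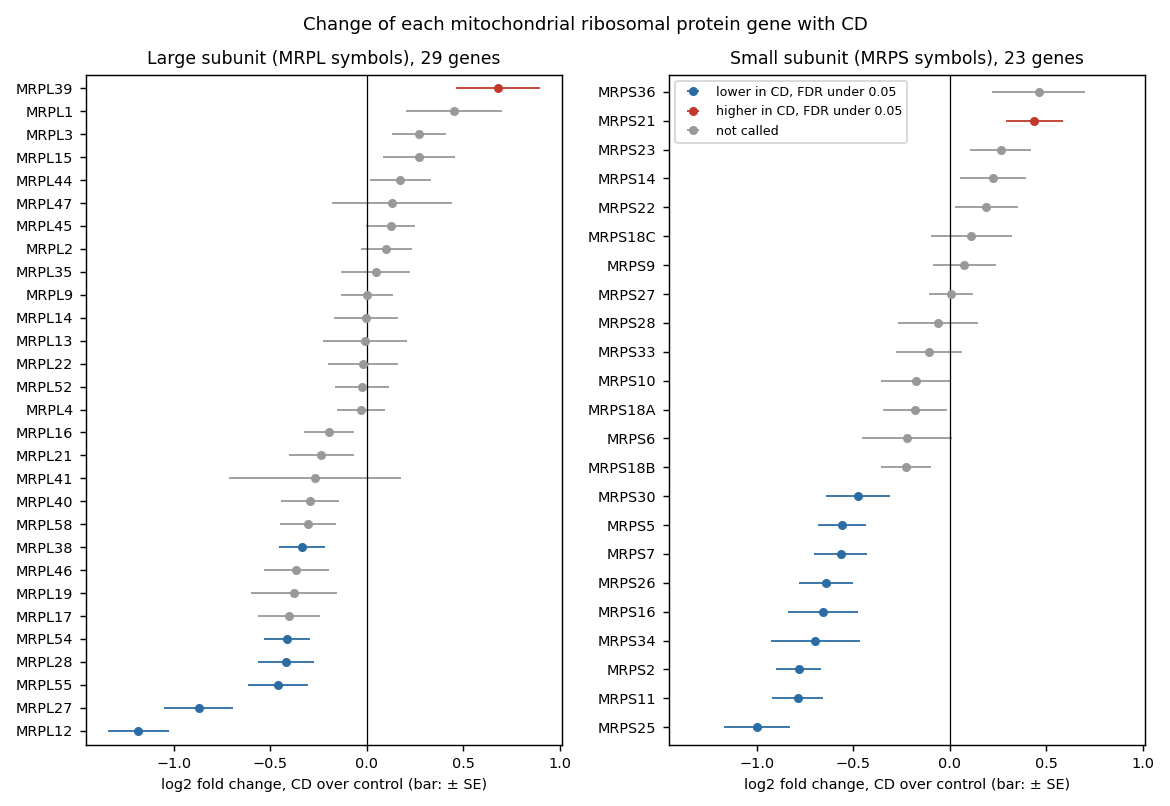
Log2 fold change of each of the 52 genes, CD over control, by subunit and ordered by size; bars give the standard error and colours mark the genes called at an FDR under 0.05. MRPL12 lies lowest at -1.18 and MRPL39 highest at 0.68, with 15 genes called lower and 2 called higher.

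The plot of log2 fold changes with their standard errors shows values on both sides of 0 in each subunit, 10 of 29 positive in the large and 8 of 23 in the small. MRPL12 had the most reads of the large subunit genes. Its level was 420, 434 and 424 CPM in control replicates 1 to 3 and 151, 175 and 237 CPM in CD replicates 1 to 3. The groups lay far apart, and the CD libraries spread more widely (426 ± 7.53 CPM in control and 188 ± 44.2 in CD, SD, n = 3). The log2 fold change was -1.18 (SE 0.16, FDR 2.18e-04 by edgeR), and the call held in each of 14 alternative settings. MRPL54, the other stalk protein among the 52, had 200, 180 and 202 CPM in control and 128, 148 and 160 in CD. Its groups did not overlap, and the log2 fold change was -0.41 (SE 0.12, FDR 0.0172), a call that was lost without control replicate 1 or 3.

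MRPL27 had 164, 165 and 165 CPM in control and 70.3, 80.8 and 120 in CD. All CD libraries lay below all control libraries, and CD replicate 3 lay closest to them. The log2 fold change was -0.87 (SE 0.18, FDR 0.00286 by edgeR), called in 14 of 14 alternative settings. MRPL27, MRPL38, MRPL55, MRPL40, MRPL46 and MRPL58 belong to the central protuberance, the part of the large subunit that faces the head of the small one. MRPL38 had 163, 148 and 164 CPM in control against 111, 129 and 137 in CD (log2 fold change -0.34, SE 0.12, FDR 0.0388), and MRPL55 81.0, 81.9 and 77.0 against 46.8, 55.5 and 72.3 (-0.46, SE 0.16, FDR 0.0357). Both fell without an overlap of groups, but neither call held without any 1 of the 3 control libraries, or without CD replicate 1 or 2, that of MRPL38 was also lost with the replicate number as a block and that of MRPL55 with upper quartile scaling.

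The remaining 3 of these 6 genes did not pass the test. MRPL58, a peptidyl-tRNA hydrolase built into the ribosome, had 48.3, 51.5 and 49.4 CPM in control and 35.3, 37.4 and 48.2 in CD (log2 fold change -0.30, FDR 0.106). In MRPL58 and MRPL46 (-0.36, FDR 0.0981) the groups did not overlap, CD replicate 3 lying just under the lowest control library. MRPL40 had a log2 fold change of -0.29 (FDR 0.136). The 6 genes had values from -0.87 to -0.29, with 3 called, and over all genes tested 46.8% of values were negative and 22.9% of genes fell. These 6 need not be all the genes of that region among the 52. RM18, described as large subunit protein L18 and also of the central protuberance, stood in the table under another symbol with 225, 261 and 260 CPM in control and 156, 167 and 231 in CD, where CD replicate 3 lay inside the control range (log2 fold change -0.43, SE 0.16, FDR 0.0436 by edgeR). RM18 is named after its values were seen, and its call was lost without any 1 library other than CD replicate 3, with upper quartile scaling and with a minimum of 50 counts in 3 libraries.

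MRPL28, a protein with a bacterial relative, had 264, 279 and 285 CPM in control and 167, 207 and 247 in CD. The groups did not overlap, and the log2 fold change was -0.42 (SE 0.14, FDR 0.0363 by edgeR), a call lost without any 1 control library or without CD replicate 1 or 2. Around the exit tunnel edgeR called 0 of 4 genes, as did DESeq2 and limma-voom, where edgeR called 47.7% of all genes in either direction. Of the 4, 1 gene, MRPL17, had an unadjusted p under 0.05 by edgeR. MRPL17 had 234, 249 and 250 CPM in control and 154, 163 and 237 in CD. CD replicate 3 lay inside the control range and replicates 1 and 2 far below it (log2 fold change -0.40, SE 0.16, FDR 0.0624 by edgeR). It was called without CD replicate 3, with total counts as the scale, with no filter on low counts and with the replicate number as a block. MRPL22, MRPL45 and MRPL47 had log2 fold changes of -0.02, 0.12 and 0.13.

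MRPL39, a mitochondria-specific protein, was the only one of the 29 genes with an MRPL symbol to rise. It had 15.5, 18.9 and 15.4 CPM in control and 22.7, 21.0 and 36.2 in CD. The CD libraries lay above the control libraries, replicate 3 by the most, at 16.6 ± 2.03 CPM in control and 26.7 ± 8.35 in CD (SD, n = 3). The log2 fold change was 0.68 (SE 0.22, FDR 0.0263 by edgeR), and the call was lost without control replicate 1 or 3.

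The plot of levels by library shows 12 genes, among them MRPL41, which stood out for its spread and is named after its values were seen. It had 130, 118 and 62.8 CPM in control and 29.9, 92.3 and 136 in CD. Each group covered most of the range of the other. The log2 fold change was -0.27 with an SE of 0.44 (FDR 0.648 by edgeR), and its sign turned without CD replicate 1 (0.15).

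**Figure D2:**
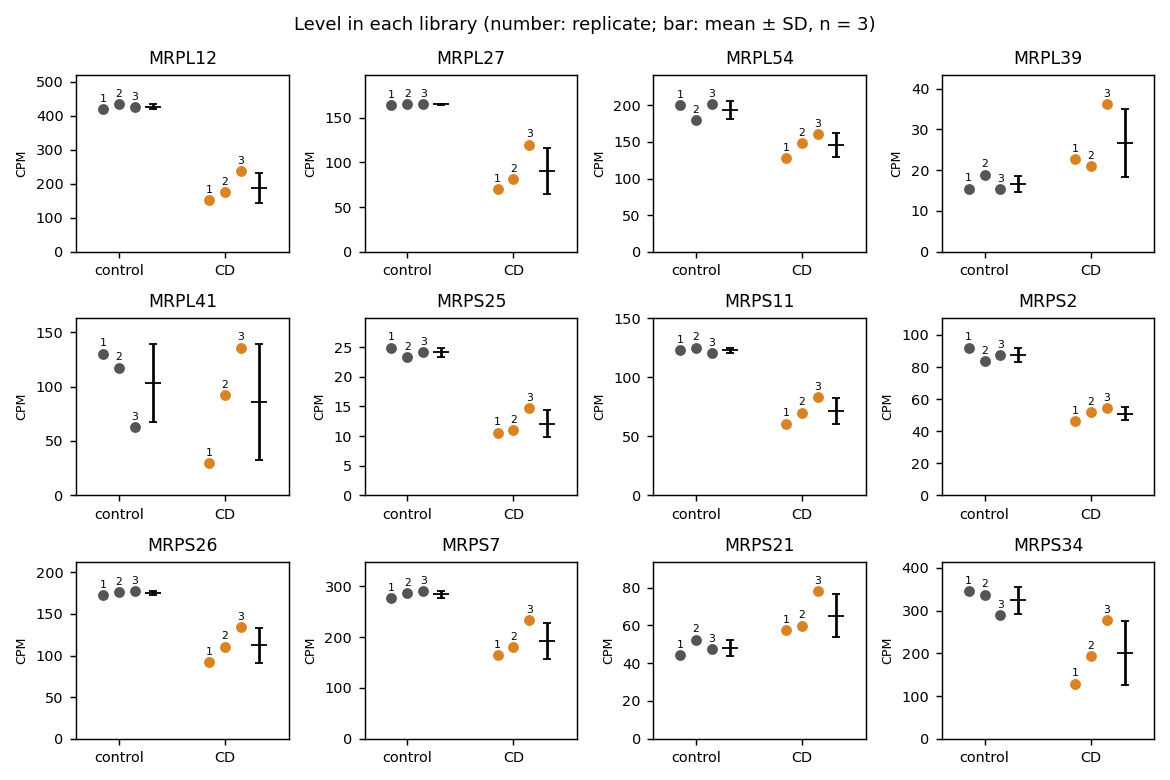
CPM of 12 of the genes, 1 panel each, in every library (linear axes from 0; points numbered by replicate, control grey and CD orange; bars give the mean ± SD, n = 3). In 11 panels the groups do not overlap, MRPL41 being the exception. These 11 are called genes chosen with their values known, and 58% of all genes tested had no overlap. In all 12 CD replicate 3 lies highest of the CD libraries, as in 40.1% of all genes tested.

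In the small subunit, the 6 called genes with the lowest log2 fold changes were MRPS25, MRPS11, MRPS2, MRPS34, MRPS16 and MRPS26. MRPS25 had 24.9, 23.3 and 24.1 CPM in control and 10.6, 10.98 and 14.8 in CD. Every CD library lay far below every control library, with a log2 fold change of -0.996 (SE 0.17, FDR 9.54e-04 by edgeR). MRPS11, on the platform of the small subunit, had 123, 125 and 121 CPM in control and 60.7, 70.2 and 83.2 in CD, with a log2 fold change of -0.79 (SE 0.13, FDR 8.48e-04). MRPS2, a protein with a bacterial relative, had 92.1, 83.6 and 87.2 CPM in control and 46.4, 52.0 and 54.5 in CD. Here the 3 CD libraries lay close together, and the log2 fold change was -0.78 (SE 0.12, FDR 4.14e-04). These 3 calls held in 14 of 14 alternative settings.

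MRPS26, a mitochondria-specific protein, had 173, 176 and 177 CPM in control and 92.4, 111 and 134 in CD. The groups lay apart, with a log2 fold change of -0.64 (SE 0.14, FDR 0.00394 by edgeR) that was called in every setting. MRPS16, with a bacterial relative, had 58.2, 70.3 and 67.7 CPM in control and 34.2, 36.2 and 54.1 in CD. CD replicate 3 came within a few CPM of the lowest control library, and the log2 fold change was -0.66 (SE 0.18, FDR 0.0131), a call lost without control replicate 2 or 3 or CD replicate 2.

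MRPS34, a mitochondria-specific protein, had the most reads of the small subunit genes, with 346, 337 and 289 CPM in control and 129, 193 and 278 in CD. The CD libraries differed from each other by more than the control libraries did, and replicate 3 lay just under the lowest control library. The log2 fold change was -0.70 (SE 0.23, FDR 0.0306 by edgeR), and the call was lost without any 1 control library, without CD replicate 2, or with no filter on low counts. MRPS34 overlaps another gene, EME2, in the RefSeq annotation of mink. Reads labelled ambiguous were kept as a total apart from the genes (0.535% of reads in control replicate 1 to 0.912% in CD replicate 3). Whether reads from this overlap were among them was not tested. The use of strand in counting could not be learned from the methods or labels.

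MRPS7 and MRPS5 are named after their values were seen. MRPS7, of the head of the small subunit near the bound transfer RNAs, had 277, 286 and 290 CPM in control and 164, 179 and 233 in CD (log2 fold change -0.57, SE 0.14, FDR 0.00734 by edgeR), and overlaps the gene MIF4GD. MRPS5, near the channel by which the messenger RNA enters, had 67.4, 73.9 and 71.1 CPM in control and 44.2, 46.1 and 54.1 in CD (-0.56, SE 0.12, FDR 0.00425). In both the groups lay apart and the call held in every setting. MRPS7 was the single called gene of 5 in the head, a share near the 22.9% of all genes that fell, and MRPS9, MRPS10, MRPS14 and MRPS33 ranged from -0.18 to 0.23.

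MRPS21, a protein with a bacterial relative, was the only one of the 23 genes with an MRPS symbol to rise. It had 44.3, 52.5 and 47.3 CPM in control and 57.6, 59.9 and 78.2 in CD. The CD libraries lay above the control libraries, 2 of them by a few CPM. The log2 fold change was 0.44 (SE 0.15, FDR 0.0318 by edgeR), and the call was lost without any 1 control library or without CD replicate 2 or 3.

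For 3 genes the symbol and the place of the protein differ. MRPS30 and MRPS18A sit in the large subunit despite their names. MRPS30 fell, from 13.3, 16.8 and 13.7 CPM in control to 10.7, 10.0 and 10.8 in CD (log2 fold change -0.48, SE 0.17, FDR 0.0388 by edgeR), but the call held in only 5 of 14 alternative settings and was lost without any 1 library other than CD replicate 3. MRPS18A had a log2 fold change of -0.18 (FDR 0.403). MRPS36, a subunit of the 2-oxoglutarate dehydrogenase complex, had 0.46 (FDR 0.144). Sorted by place, 7 of 31 large subunit genes fell and 1 rose, and 8 of 20 small subunit genes fell and 1 rose, with medians of -0.18 and -0.20. The share of the large subunit was again near the 22.9% of all genes that fell. Of its falls, those of MRPL54, MRPL55, MRPL28, MRPL38 and MRPS30 were lost without control replicate 1, as was the rise of MRPL39.

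The genes were also split by descent. Of the large subunit proteins with bacterial relatives, 4 of 19 fell and 0 rose (median log2 fold change -0.02), and of those found in mitochondria alone, 3 of 12 fell and 1 rose (-0.28). In the small subunit the numbers were 5 of 12 falling with 1 rising (-0.20), and 3 of 8 falling with 0 rising (-0.17). Over all genes tested 22.9% fell. The shares in both classes of the large subunit were near that value, and the classes were not tested against each other. Without control replicate 1, MRPL54, MRPL38, MRPS30 and MRPL39, the called genes of the mitochondria-specific large subunit class, lost their calls. Of the large subunit genes with bacterial relatives, MRPL55 and MRPL28 did so.

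**Figure D3:**
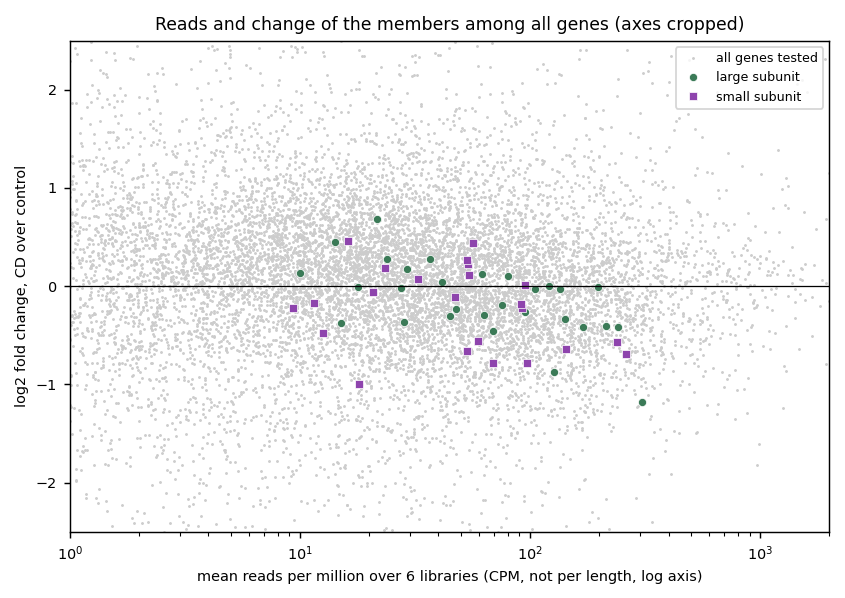
Mean CPM over the 6 libraries (log axis, not per length) against log2 fold change, CD over control, for all genes tested in grey (axes cropped) and the large and small subunit genes in colour. MRPL12 and MRPS34, with the most reads of their subunits, both lie below 0.

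The genes were also divided by their reads, as a description with no test between the parts. Of the 26 genes above the members' median of 55.5 CPM, 12 fell and 1 rose (median log2 fold change -0.31), and of the 26 below it, 3 fell and 1 rose (0.02). Among all genes tested, 1138 of the 3633 at or above that level fell and 848 rose (median -0.07), and 1646 of the 8515 below it fell and 2168 rose (0.12). Over the 52 genes, reads and log2 fold change correlated with a Pearson r of -0.42 and a Spearman rho of -0.43, against -0.08 and -0.10 over all genes tested. The genes share libraries and depth, CPM is not per length, and these correlations are given as a description. A higher read number gives the test more precision, and its part in these counts was not tested. Calls in both parts were gained or lost when 1 library was left out, so that these counts hold for all 6 libraries together.

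The CD libraries did not act alike, as the plot of each CD library against the control mean shows. In CD replicate 1 the median log2 difference from the control mean was -0.36 in the large subunit, with 22 of 29 genes below all 3 control libraries and 3 above. In CD replicate 2 it was -0.28, with 20 below and 3 above. In CD replicate 3 it was 0.26, with 8 below and 16 above. Over all genes tested, the share below all control libraries was 39.8, 40.9 and 43.6% and the share above 46.6, 42.4 and 43.4% in CD replicates 1, 2 and 3.

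The small subunit showed the same order of libraries. Its median difference was -0.44 in CD replicate 1 (15 of 23 genes below all control libraries, 3 above), -0.36 in CD replicate 2 (16 below, 1 above) and 0.04 in CD replicate 3 (9 below, 11 above). With total counts as the scale, the last value was -0.01.

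**Figure D4:**
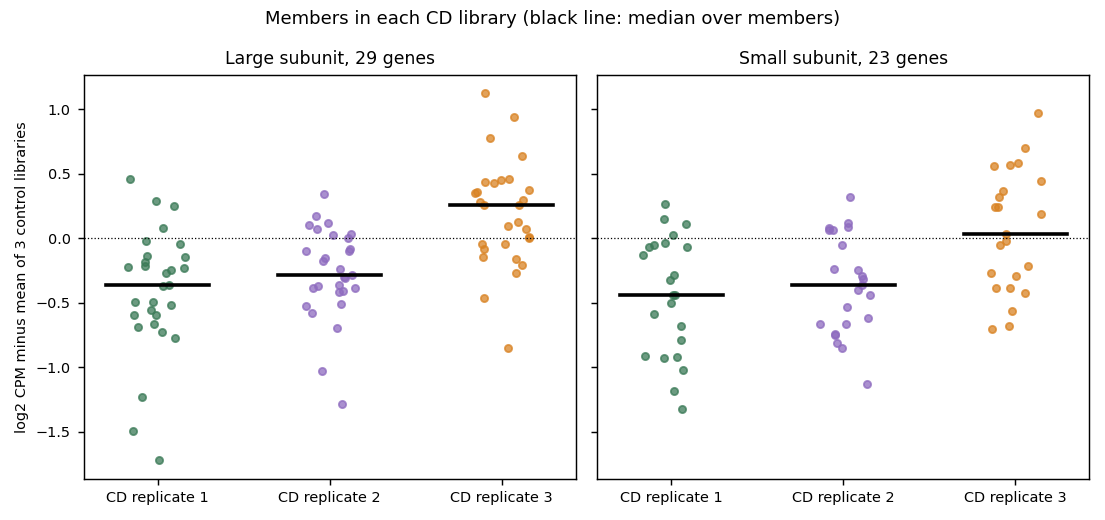
Log2 difference of each CD library from the mean of the 3 control libraries, 1 point per gene, for the large and the small subunit, with the median as a line. The medians are -0.36, -0.28 and 0.26 in the large subunit and -0.44, -0.36 and 0.04 in the small subunit for CD replicates 1, 2 and 3.

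CD replicate 3 had the highest level of the CD libraries in 29 of 29 large subunit genes and in 22 of 23 small subunit genes, the exception being MRPS27, where CD replicate 2 was higher by a little (98.8 against 97.2 CPM). Over all genes tested, CD replicate 3 was the highest in 40.1%. CD replicate 1 was the lowest in 21 large and 16 small subunit genes, and in 35.2% of all genes tested. Between the highest and the lowest CD library the median distance was 0.60 on the log2 scale in the large subunit and 0.50 in the small, against 0.14 and 0.24 between the control libraries. The wider spread in CD held in 28 of 29 and 19 of 23 genes, and how often it held over all genes was not counted.

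In summed level, the large subunit genes came to 2842, 2888 and 2826 CPM in control and 1871, 2164 and 2794 in CD, and the small subunit genes to 1786, 1886 and 1781 in control and 1172, 1318 and 1726 in CD. The sums of CD replicate 3 lay just under those of control, although its median differences were above 0, whereas replicates 1 and 2 lay far below. Among the CD libraries, replicate 3 had the highest share of reads outside genes (41.4%, against 31.1 and 31.8%) and of unmapped reads (9.37%, against 3.54 and 4.33%), and the fewest reads on genes (14426841). Control replicate 1 had higher shares of both (47.2 and 18.4%), and control replicate 2 had as large a share outside genes (41.4%) and more unmapped reads (13.6%). The part of these differences in the result was not tested.

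Without CD replicate 3, 29 of the 52 genes were called, 16 of them among the 17 called with all libraries, when 29.3% of all genes rose and 29.2% fell, so that the number called in either direction was near that over all genes. The median log2 fold change was then -0.34 in the large subunit and -0.38 in the small. Without CD replicate 1 the large subunit's median was 0.08 and the small subunit's -0.05. Called only without CD replicate 3 were MRPL14, MRPL16, MRPL19, MRPL21, MRPL40, MRPL46 and MRPL58, and MRPS6, MRPS18A, MRPS18B, MRPS28 and MRPS33. MRPL14, a protein with a bacterial relative, shows the pattern, with 201, 193 and 201 CPM in control and 154, 185 and 254 in CD (log2 fold change -0.0045). The CD libraries lay on both sides of the control libraries.

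Other parts of the mitochondrial translation system were taken from lists written from general knowledge. Not every symbol was in the table. The assembly and RNA factors gave 27 genes from 41 symbols, the translation factors 19 from 24 and the tRNA synthetases 16 from 20. The genes for mitochondrial DNA expression came to 21 from 29, and the mitoribosomal proteins with names of other kinds to 4 from 6. Genes under other symbols would be missed. A further 13 genes of the large subunit stood in the table under other symbols and were found by their descriptions. Of these, 3 fell and 1 rose, with a median log2 fold change of -0.16 (-0.05 without CD replicate 1 and -0.32 without CD replicate 3). The share that fell was near the 22.9% of all genes. RM37, described as large subunit protein L37, had 145, 138 and 146 CPM in control and 72.5, 85.5 and 78.0 in CD. The groups lay far apart (log2 fold change -0.86, SE 0.11, FDR 1.61e-04 by edgeR). RM50 (L50) rose, with 9.31, 9.61 and 7.99 CPM in control and 15.5, 12.3 and 23.7 in CD (0.93, SE 0.24, FDR 0.00998), a call lost without control replicate 3. Of the 13, 9 fell without CD replicate 3, against 29.2% of all genes, and 1 fell without any 1 of the other libraries, against 17.8 to 23.5% of all genes. RM10 (L10) also fell without an overlap of groups, with 79.8, 76.0 and 77.4 CPM in control and 52.7, 60.8 and 65.2 in CD (log2 fold change -0.38, SE 0.12, FDR 0.0236), and its call was lost without any 1 library other than CD replicate 3 and with the replicate number as a block. Of 4 mitoribosomal proteins with names of other kinds, edgeR called 0 (47.7% of all genes), with 1 at an unadjusted p under 0.05. DESeq2 and limma-voom called 1 of them lower, and 2814 and 2835 of all 12148 genes. By edgeR 3 fell without CD replicate 3 (29.2% of all genes) and 1 without CD replicate 1 (23.5%).

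Among 27 factors that assemble the mitoribosome or process its RNA, 12 fell and 2 rose, with a median log2 fold change of -0.34, against 22.9% falling and 24.8% rising over all genes. C1QBP, a matrix protein that binds RNA and mitoribosomes, had 527, 491 and 506 CPM in control and 143, 172 and 229 in CD, a fall by 1.49 (SE 0.17, FDR 6.41e-05 by edgeR). TBRG4, a FASTK family protein that handles mitochondrial transcripts, fell by 1.40 (SE 0.12, FDR 1.17e-05), and DHX30, a helicase needed for mitoribosome assembly, by 0.80 (SE 0.11, FDR 2.29e-04). NGRN, of the same RNA metabolism, rose by 0.76 (SE 0.15, FDR 0.00202) and FASTKD5 by 0.67 (SE 0.14, FDR 0.00374). All 5 calls held in every setting.

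Of 19 translation factors and their helpers, 6 fell and 1 rose, where 22.9% of all genes fell and 24.8% rose. The median log2 fold change was -0.14, and -0.37 without CD replicate 1 or -0.24 without CD replicate 3. OXA1L, which inserts new proteins into the inner membrane, had 116, 116 and 127 CPM in control and 51.7, 52.8 and 56.5 in CD. Its CD libraries agreed closely, replicate 3 included (log2 fold change -1.16, SE 0.11, FDR 2.26e-05 by edgeR). GTPBP3, a transfer RNA modifying enzyme, fell by 0.85 (SE 0.14, FDR 7.69e-04) and LRPPRC, which stabilises mitochondrial messenger RNAs, by 0.84 (SE 0.17, FDR 0.00297). MTFMT, which formylates the initiator methionine, rose by 0.58 (SE 0.18, FDR 0.0233), a call lost without any 1 control library or without CD replicate 3.

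The mitochondrial tRNA synthetases, which load amino acids on transfer RNAs, had the lowest median of the lists, -0.53, with 8 of 16 falling and 1 rising, beside 22.9 and 24.8% of all genes. MARS2, for methionine, had 5.80, 6.72 and 8.60 CPM in control and 2.03, 3.25 and 2.23 in CD (log2 fold change -1.49, SE 0.25, FDR 8.93e-04 by edgeR). EARS2, for glutamate, fell by 1.24 (SE 0.18, FDR 3.40e-04) and LARS2, for leucine, by 1.07 (SE 0.18, FDR 7.14e-04). IARS2, for isoleucine, rose by 0.37 (SE 0.12, FDR 0.0239), a call lost with the replicate number as a block and without control replicate 1 or 3. Unlike in the ribosomal proteins, the median of these genes in CD replicate 3 (-0.75) lay below those in replicates 1 and 2 (-0.39 and -0.47), and replicate 3 was the highest CD library in 4 of 16 genes. This difference between lists was not tested.

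Of 20 tested genes for the transcription and upkeep of mitochondrial DNA, 6 fell and 1 rose (22.9 and 24.8% over all genes). The median log2 fold change was -0.20, and it moved to -0.07 without control replicate 2 and to -0.30 without CD replicate 3. PPRC1, a coactivator of the PGC-1 family, had 118, 105 and 116 CPM in control and 51.2, 54.5 and 36.6 in CD, a fall by 1.25 (SE 0.16, FDR 1.33e-04 by edgeR). PPARGC1B, of the same family, fell by 1.18 (SE 0.23, FDR 0.00188), and ELAC2, which trims the ends of transfer RNAs, by 1.14 (SE 0.11, FDR 2.84e-05). ESRRA, a nuclear receptor that works with these coactivators, rose by 0.48 (SE 0.11, FDR 0.00462). These 4 calls held in every setting.

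**Figure D5:**
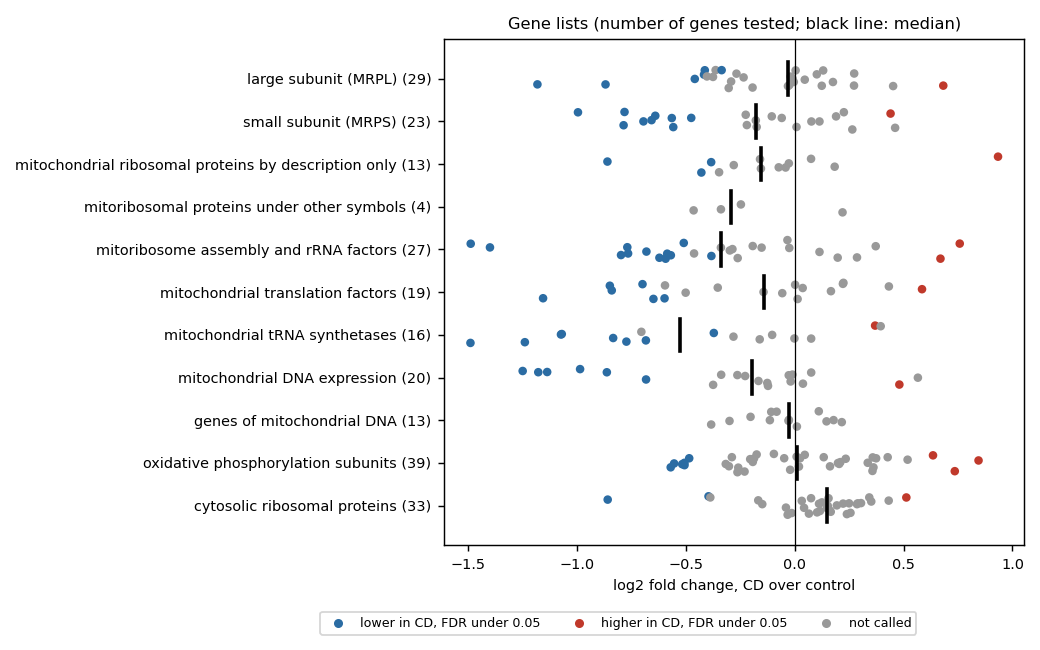
Log2 fold change, CD over control, of every tested gene in the subunits and in 9 further lists, with the number tested in brackets, a black line at each median and colours for genes called at an FDR under 0.05. Medians run from -0.53 in the mitochondrial tRNA synthetases to 0.15 in the cytosolic ribosomal proteins.

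The products and the partners of the mitoribosome are set beside it in the plot of gene lists. Of the 13 protein genes of mitochondrial DNA 0 were called by edgeR, DESeq2 or limma-voom and 0 had an unadjusted p under 0.05 by edgeR, where 47.7% of all genes were called in either direction, with log2 fold changes from -0.38 in COX3 to 0.22 in ND6 and a median of -0.03. COX3 had 2912, 1896 and 2109 CPM in control and 1454, 1628 and 2218 in CD (SE 0.20, FDR 0.145). The median turned to 0.22 without control replicate 1, and 2 of the genes fell without CD replicate 3, against 29.2% of all genes. The libraries were made from polyadenylated RNA, and most mitochondrial messages carry short tails, so that these values hold for the captured RNA.

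Among 39 nuclear subunits of oxidative phosphorylation 6 fell and 3 rose, both smaller shares than the 22.9 and 24.8% of all genes, and the median log2 fold change was 0.01. CYC1, of complex III, fell by 0.57 (SE 0.14, FDR 0.00738 by edgeR), and NDUFV1 and NDUFS7, of complex I, by 0.55 (SE 0.12, FDR 0.00380) and 0.52 (SE 0.15, FDR 0.0166). UQCRFS1, the iron-sulphur protein of complex III, rose by 0.84 (SE 0.18, FDR 0.00306), and NDUFV2 and NDUFA2, of complex I, by 0.74 (SE 0.16, FDR 0.00425) and 0.64 (SE 0.19, FDR 0.0188). Without CD replicate 3, 18 of the 39 fell, then a larger share than the 29.2% of all genes, and the median was -0.23. Without CD replicate 1, 7 rose, against 25.1% of all genes. The calls of NDUFA2 and NDUFS7 were lost without some libraries, control replicate 3 for both, control replicate 1 for NDUFA2 and CD replicate 2 for NDUFS7.

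Of 33 tested cytosolic ribosomal protein genes 2 fell and 1 rose, beside 22.9 and 24.8% of all genes. Their median log2 fold change was 0.15, which turned to -0.15 when CD replicate 3 was left out and came to 0.27 when CD replicate 1 was. RPL31 rose by 0.51 (SE 0.19, FDR 0.0464 by edgeR), with 302, 298 and 303 CPM in control and 354, 350 and 585 in CD. The CD libraries lay above the control libraries, with replicate 3 far above the others, and the call was lost without CD replicate 3 or any 1 control library, by limma-voom and with DESeq2 size factors. RPL7L1, which works in the assembly of cytosolic ribosomes, fell by 0.40 (SE 0.13, FDR 0.0254) and RPL3L by 0.86 (SE 0.30, FDR 0.0401) at about 1 CPM. The call of RPL7L1 was lost without any 1 control library or CD replicate 2, and that of RPL3L without any 1 of the 6 libraries, by DESeq2, with no filter on low counts and with the replicate number as a block. Without any 1 control library or without CD replicate 2, 0 of these genes fell (17.8 to 20.6% of all genes), and without CD replicate 3, 6 fell, a smaller share than the 29.2% of all genes.

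CD replicate 3 was also the highest CD library in 32 of 33 cytosolic ribosomal protein genes and in 38 of 39 subunits of oxidative phosphorylation. Its median difference from the control mean was 0.51 in the former, against -0.15 and -0.06 in CD replicates 1 and 2, and 0.25 in the latter, against -0.24 and -0.11. The 13 ribosomal proteins found by description had it highest in 11 genes and the genes of mitochondrial DNA in 11 of 13. In the assembly factors the number was 19 of 27, and in the translation factors 12 of 19. Among the genes for mitochondrial DNA expression CD replicate 3 was the highest in 5 of 20 and CD replicate 1 in 9.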

How the data were processed

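Poly(A) RNA libraries (Nextera XT, NextSeq500) had been trimmed with fastp 0.20.1 and aligned with STAR 2.7.2a to the mink assembly NNQGG.v01, per the labels and the authors' methods. The authors deposited raw read counts per gene; the program that counted reads and the use of strand are not given in the sources used here. The authors' comparison used DESeq2 1.30.1 in R 4.0.3. Their separate files of normalized values were not used, because their identifiers could not be matched to the count table by value (largest Spearman correlation in size 0.00674). 4 lines of read totals were left out of library sizes and tests.

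Counts were analysed in R 4.3.3 with edgeR 4.0.16: filterByExpr (minimum count 10, total 15), TMM, robust quasi-likelihood fit with condition as the only term, and Benjamini-Hochberg adjustment over the 12148 genes tested. A gene was called at an FDR under 0.05. The SE is the size of the log2 fold change divided by the square root of F. CPM use TMM-scaled library sizes. Differences of single libraries used log2 CPM with a prior count of 2 and have no test. With 3 libraries against 3, the smallest two-sided exact permutation p for a single value is 0.1. The procedure was tested on simulated data.

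Alternatives were DESeq2 1.42.0, limma-voom (limma 3.58.1), other scalings and filters, the replicate number as a block, leaving out each library, and an FDR of 0.01. The members and lists were chosen with earlier results of these data known. Named genes were, for each subunit, the 6 highest and 6 lowest called members without overlap of groups, the member with most reads, MRPS30, MRPS18A and MRPS36, and members whose call depends on the setting, and for each list up to 3 called genes per direction without overlap of groups. Further genes were named for their region of the ribosome or after their values were seen. Of the genes of mitochondrial DNA the lowest and highest are given, in place of each one. Gene overlaps were read from the RefSeq annotation of mink (ASM_NN_V1), where all 52 symbols were found and 7 of the genes overlap another.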

Additional observations from a re-analysis of the deposited data

How the results depend on the processing

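Of 546 values of the 39 named ribosomal protein genes under the 14 alternatives, 463 kept direction and side of the threshold, 43 kept the direction but lost the call, 16 gained a call and 24 changed sign. 8 of the 15 falls and 0 of the 2 rises were called in all 14. The sign changes were in uncalled genes. MRPL14 (-0.0045) was 0.028 with upper quartile scaling and 0.0025 with a minimum of 50 counts in 3 libraries, and ranged from -0.26 to 0.16 when single libraries were left out, MRPL41 from -0.79 to 0.15, MRPL22 from -0.28 to 0.080, MRPL47 from -0.36 to 0.35, MRPS9 from -0.091 to 0.20, MRPS14 from -0.0042 to 0.36, MRPS27 from -0.057 to 0.057, MRPS33 from -0.35 to 0.0061 and MRPS28 from -0.36 to 0.054. MRPL22 was also 0.014 with upper quartile scaling, and MRPS27 (0.0079) was -0.012 by DESeq2 and with its size factors. No cause was tested.

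At an FDR of 0.01, 2 large subunit genes fell and 0 rose, and 6 small subunit genes fell and 0 rose. At that threshold 0 translation factors rose, 5 tRNA synthetases fell and 0 rose, 0 cytosolic ribosomal protein genes fell and 0 rose, 3 respiratory subunits fell and 1 gene of those found by description fell. Over all genes tested it left 16.5% rising and 16.8% falling. With the 13 genes by description taken in, an alternative added after seeing the data, 2 large subunit genes rose and 9 fell. Of the proteins under other symbols 1 fell by DESeq2, by limma-voom, with DESeq2 size factors and with the minimum of 50 counts. Among tRNA synthetases 2 rose with upper quartile scaling or total counts. Among cytosolic ribosomal proteins 1 fell by DESeq2, with no filter or with the minimum of 50 counts, and 0 rose by limma-voom or with DESeq2 size factors. The large subunit's median in CD replicate 1 was -0.41 with DESeq2 size factors, -0.32 with upper quartile scaling and -0.28 with total counts, and in CD replicate 3 it was 0.21 with total counts.

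Leaving out single libraries gave 0 to 1 rises and 2 to 14 falls in the large subunit, 0 to 1 and 6 to 14 in the small, 0 to 3 falls under other symbols, 0 to 2 rises among translation factors (median -0.37 to -0.13), 0 to 2 rises among tRNA synthetases, 1 rise and 6 to 7 falls among genes for mitochondrial DNA expression (median -0.30 to -0.07), 0 to 2 falls among genes of mitochondrial DNA (median -0.20 to 0.22), 0 to 2 rises and 0 to 6 falls among cytosolic ribosomal proteins, 2 to 7 and 4 to 18 among respiratory subunits, and 0 to 1 and 1 to 9 among genes found by description. In each list whose falls are given here the highest number came without CD replicate 3, with a range over all genes tested of 17.8 to 29.2% falling. Among cytosolic ribosomal proteins and respiratory subunits the median's sign also turned without that library, and in the large subunit it turned without CD replicate 1.

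Same-numbered control and CD libraries did not deviate together (correlations -0.024, -0.33 and -0.18). With 3 libraries a group, each centred on its group mean, these values cannot decide whether the numbers pair the samples. With the replicate number as a block, 16 of the 52 genes were called, 15 of them among the 17, with 6 falls and 1 rise in the large subunit and 8 falls and 1 rise in the small. Over all 12148 genes tested, 2636 fell and 2772 rose in that fit. Among tRNA synthetases 0 then rose and among cytosolic ribosomal proteins 1 fell. With 3 libraries a group, small changes in genes of about 10 CPM have wide errors. The planned search of promoters for motifs was not run, since no promoter sequences were used here.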
